A study of Drosophila melanogaster with 3 samples.

Results

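The Notch pathway and E(spl) genes described here are 10 protein-coding genes chosen by symbol, taken from 13741 protein-coding genes that could receive a peak. They are N (the receptor Notch), neur, Su(H), H, fng and the basic helix-loop-helix genes E(spl)m8-HLH, E(spl)mbeta-HLH, E(spl)m7-HLH, E(spl)m5-HLH and E(spl)m3-HLH of the Enhancer of split Complex. Of the 3650 peaks of the conservative list, 3644 lay on the 6 chromosome arms used, and 8 of these had a member's transcription start site (TSS) as their nearest within 10 kb. The assay was chromatin immunoprecipitation with sequencing (ChIP-seq) of croc, a forkhead-domain transcription factor, carrying an eGFP tag (croc-eGFP). There was a single group, whole Drosophila melanogaster embryos of the transgenic strain croc-GFP aged 0 to 18 h, with 3 biological replicates. Per the labels, sonicated fragments of 200 to 800 bp were immunoprecipitated with an antibody against GFP, although the antibody field names croc itself. All embryos carried the fusion, the sex was not recorded, and control libraries were not analysed here, so no untreated or mock background stands beside the values. Whole embryos mix all cell types and 18 h of development, and a peak does not say in which cells croc-eGFP was bound.

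In the Notch pathway a membrane-bound ligand on one cell binds the receptor on its neighbour, and proteolytic cleavage frees the receptor's intracellular domain. That domain enters the nucleus and joins the DNA-binding protein Suppressor of Hairless (Su(H)) and the coactivator mastermind, and the E(spl) genes are the best known targets of this complex. The E(spl) basic helix-loop-helix proteins repress transcription with the corepressor groucho, and in the embryonic neuroectoderm they hold back the proneural genes, so that single neuroblasts are singled out from a cluster of equivalent cells. Forkhead-domain proteins bind A/T-rich DNA with a TGTTTAC-like core.

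The sequences at the summits are shown first, since the members' peaks differ in the words they hold. Each is 201 bases centred on a conservative summit, on the Release 6 (dm6) sequence, written 5′ to 3′ on the strand of the named gene. Capitals mark 5 kinds of word. Forkhead words were TATTTAC, and likewise TATTTAT, and also TGTTTAC, and lastly TGTTTAT. Su(H) words were CGTGGGAA, then TGTGGGAA, then CGTGAGAA, and finally TGTGAGAA. The proneural E-box was searched as GCAGNTG, with any base at N. A word that E(spl)-type repressors can bind was CACGTG, and the word of GAGA factor was GAGAG. All were searched on both strands, so a word on the other strand appears as its reverse complement. The first 3 are sites found in all 3 replicates, and the next 2 are weaker neighbours with more words. The last is a site inside N that no member received by the nearest-TSS rule.
E(spl)m3-HLH, chr3R:26021299-26021499, + strand: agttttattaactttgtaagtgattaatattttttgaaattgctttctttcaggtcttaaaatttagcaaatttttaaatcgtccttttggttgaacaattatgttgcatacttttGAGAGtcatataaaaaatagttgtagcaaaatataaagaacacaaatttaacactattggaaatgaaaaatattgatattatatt
E(spl)m7-HLH, chr3R:26036547-26036747, + strand: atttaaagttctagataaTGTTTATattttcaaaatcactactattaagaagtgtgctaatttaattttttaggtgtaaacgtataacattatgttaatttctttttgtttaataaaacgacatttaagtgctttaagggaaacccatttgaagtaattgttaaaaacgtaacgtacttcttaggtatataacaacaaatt
neur intron, chr3R:9031918-9032118, - strand: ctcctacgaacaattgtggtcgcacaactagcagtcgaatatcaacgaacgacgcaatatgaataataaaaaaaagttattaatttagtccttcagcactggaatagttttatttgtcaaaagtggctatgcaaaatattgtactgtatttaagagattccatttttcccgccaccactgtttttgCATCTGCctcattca
E(spl)m3-HLH far site, chr3R:26020412-26020612, + strand: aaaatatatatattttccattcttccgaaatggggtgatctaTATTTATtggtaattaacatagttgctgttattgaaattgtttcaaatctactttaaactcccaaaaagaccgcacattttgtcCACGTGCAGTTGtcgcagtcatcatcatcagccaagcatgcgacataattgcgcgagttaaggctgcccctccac
neur weak site, chr3R:9034031-9034231, - strand: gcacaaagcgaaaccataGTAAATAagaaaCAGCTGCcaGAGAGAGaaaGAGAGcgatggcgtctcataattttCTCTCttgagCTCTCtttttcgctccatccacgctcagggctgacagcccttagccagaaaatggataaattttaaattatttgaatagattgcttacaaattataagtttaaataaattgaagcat
N intron, chrX:3162443-3162643, + strand: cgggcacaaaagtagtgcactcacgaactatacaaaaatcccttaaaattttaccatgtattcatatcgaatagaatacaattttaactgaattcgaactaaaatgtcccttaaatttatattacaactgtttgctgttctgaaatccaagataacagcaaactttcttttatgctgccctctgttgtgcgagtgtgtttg

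Of the 10 genes, 4 had a conservative peak: neur, fng, E(spl)m3-HLH and E(spl)m7-HLH. Over all 13741 genes the share with a conservative peak was 15.8%. The same 4 genes were the members with a peak in the thresholded list of each replicate, where replicate 1 had 7 member peaks, replicate 2 had 6 and replicate 3 had 4. The background share of genes with a peak was 14.8%, 12.2% and 9.64% in those lists. Each of the 4 genes had a conservative peak with a summit within 250 bp in all 3 replicate lists, which 8.17% of all genes had. The median conservative signal was 212 over the 8 member peaks and 183 over all peaks on the arms. These values are given with no test, because the genes were chosen with results of these data known.

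The rule shares out sequence unequally. Over all genes a median of 4323 bp lay nearest to a gene's own TSS within the limit, against 13620 bp for fng, 13116 bp for N, 9872 bp for neur and 2349 bp for E(spl)m8-HLH. E(spl)m3-HLH and E(spl)m7-HLH had 3555 and 3665 bp, below the median of all genes, and the part of this difference in the counts was not tested. Of the 4 genes, 3 had at least 2 peaks (neur 3, fng 2, E(spl)m3-HLH 2), beside 29.9% of all genes with a peak.

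Among the 8 peaks, 4 had a summit in all 3 replicate lists, 3 in the lists of replicates 1 and 2 and 1 in replicate 1 alone. Over the 3644 conservative peaks on the arms, 43.6% were in all 3 lists. Replicates 1 and 2 are not independent of the conservative list. In the deposited ranked list of 17254 peaks that held all 8, the first of the paired intervals was an interval of replicate 1 for 8 of 8 peaks and the second an interval of replicate 2 for 8 of 8. The ranked list of replicate 3 held neither interval for any of the 8. Replicate 3 is therefore the list that the conservative calls at these genes did not use, and it held 4 of the 8 summits, near the 50.1% of all conservative peaks that it held. The deposited ranked lists keep peaks that missed the threshold, and there 7 of the 8 sites had a summit within 250 bp in all 3 replicates, beside 92.4% of all conservative peaks.

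**Figure D1:**
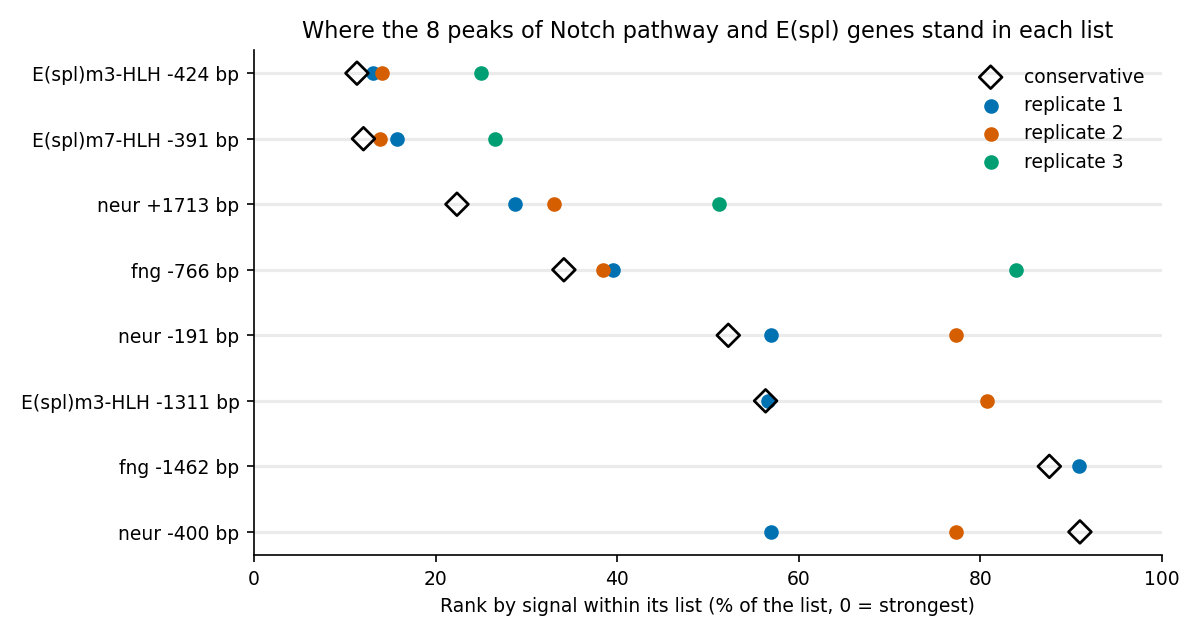
Rank by the deposited signal of the 8 member peaks (rows, named by gene and distance from the TSS) as a percent of each list, where 0 is the strongest peak; diamonds are the conservative list and circles are single replicates. The upper 4 rows have a point for all 3 replicates, and replicate 3, whose list is the shortest, stands furthest right in each of them. The replicate points of the neur -191 and -400 bp rows are the same 2 summits.

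The E(spl) genes encode the transcriptional repressors that carry out Notch signalling, and the 2 strongest member peaks lay just upstream of E(spl)m3-HLH and E(spl)m7-HLH. The gene E(spl)m3-HLH (FBgn0002609, chr3R:26021823-26023127, + strand) had an intergenic peak at chr3R:26021207-26021590 with its summit 424 bp before the TSS. Its deposited signal, a peak caller's value whose scale is not stated and which is comparable only within a list, was 483 and ranked 414 of 3650. In replicates 1, 2 and 3 the signal was 193, 198 and 108, with ranks 420 of 3198, 342 of 2433 and 455 of 1822. The summits of the replicates lay at a mean of -415 ± 20.5 bp from the TSS (SD, n = 3).

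E(spl)m7-HLH (FBgn0002633, chr3R:26037038-26038019, + strand) had its peak at chr3R:26036507-26036767, also intergenic, with the summit 391 bp before the TSS. The conservative signal was 468, at rank 440. Signals of 175, 199 and 105 in the 3 replicates ranked 504, 338 and 485. The replicate summits fell at -419 ± 5.20 bp (SD, n = 3), so the E(spl)m3-HLH and E(spl)m7-HLH sites lay at distances from their TSSs that did not differ beyond the spread of the replicates. As a percent of the list, the ranks were 17.4 ± 6.60 for E(spl)m3-HLH and 18.8 ± 6.85 for E(spl)m7-HLH (SD, n = 3). The lists held 3198, 2433 and 1822 peaks, so these percents and their SDs also depend on the length of each list. The order of these sites was not stable: E(spl)m3-HLH was the stronger in replicates 1 and 3 and E(spl)m7-HLH in replicate 2.

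A second peak of E(spl)m3-HLH, at chr3R:26020320-26020703, lay 1311 bp before the TSS, with E(spl)m2-BFM as the second nearest gene at 3042 bp. The conservative signal was 167 (rank 2057), and the signals in replicates 1 and 2 were 72.5 and 64.0. In replicate 3 it did not pass the threshold, where a ranked summit 92 bp away had a signal of 34.9 and a −log10 global irreproducible discovery rate (IDR) of 1.27, below the 2.0 that the threshold requires. IDR scores how well a peak's rank repeats between a pair of lists, and the threshold corresponds to the lowest score kept, 830.

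The other 3 E(spl) members, E(spl)m5-HLH, E(spl)m8-HLH and E(spl)mbeta-HLH, encode repressors of the same family and had no thresholded peak in any of these lists. In the ranked lists of replicates 1, 2 and 3 the highest −log10 IDR was 0.378, 0.088 and 0.355 near E(spl)m5-HLH. It was 0.082, 0.192 and 0.052 near E(spl)mbeta-HLH. E(spl)m8-HLH had a ranked peak in replicate 2 alone, at 0.088. Near E(spl)m3-HLH the same value reached 5, 5 and 4.87, where 5 is the highest that the lists give.

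The E(spl) Complex spans 52.3 kb and 13 of the genes considered here, from E(spl)mdelta-HLH to gro (chr3R:25997621-26049911), and held 8 conservative peaks, of which 6 were in all 3 replicate lists. A stretch of that length held a mean of 1.42 conservative peaks over the 6 arms. Such means go by length alone and take no account of how densely genes lie. The complex holds 14 protein-coding genes, and the part of gene density in these counts was not tested. The replicate lists had 6, 7 and 6 peaks there, beside means of 1.25, 0.941 and 0.709. Besides the 3 member peaks, the complex had a peak 1833 bp before E(spl)malpha-BFM (signal 379, rank 637), which encodes a Bearded family protein, and a pair near E(spl)m2-BFM. The stronger of that pair lay 466 bp before the TSS (signal 459, rank 451), and the weaker, at 669 bp, had a signal of 5.95 and matched the same replicate summits. The weaker is therefore counted in the 8 and in the 6 without being a separate site in the replicate lists. The corepressor gene gro had an intronic peak 154 bp before one of its alternative TSSs (signal 453, rank 466, all 3 replicates). A weaker gro peak, 94 bp before another TSS, had a signal of 147 and was in replicates 2 and 3. No conservative peak had E(spl)mdelta-HLH, E(spl)mgamma-HLH, E(spl)mbeta-HLH, the protease inhibitor gene E(spl)m1, E(spl)m4-BFM, E(spl)m5-HLH, E(spl)m6-BFM or E(spl)m8-HLH as its nearest gene.

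**Figure D2:**
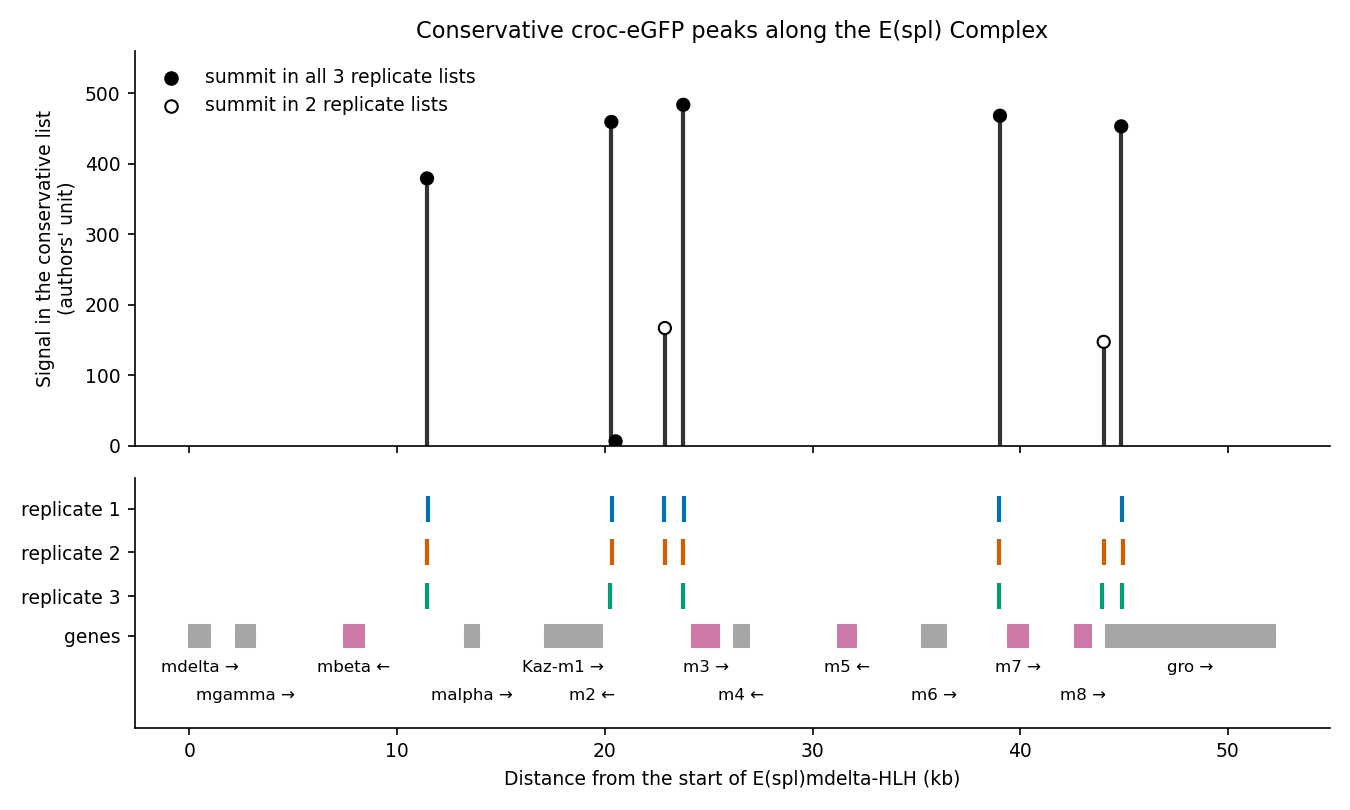
Conservative peaks along the E(spl) Complex (upper panel, deposited signal against distance in kb), with the replicate summits and the gene bodies below, members in pink, the other genes in grey and arrows giving the strand. The 5 peaks with signals from 379 to 483 are all in the 3 replicate lists, and the stretch from E(spl)m4-BFM to E(spl)m6-BFM holds none.

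Notch signals reach their target genes through Su(H), and no member summit had a Su(H) word close beside it. Which members are such targets in these embryos was not tested. None of the 8 member peaks had a Su(H) word within 150 bp of its summit, beside 2.74% of all conservative peaks, so a count of 0 among 8 is near what that share gives. The centre of the nearest Su(H) word was 619 bp from the E(spl)m3-HLH summit, 249 bp from that of E(spl)m7-HLH and 165 bp from the second E(spl)m3-HLH summit. In the 500 bp before their TSSs, a window chosen after the values were seen, E(spl)m5-HLH and E(spl)m8-HLH had 2 Su(H) words each, and E(spl)mbeta-HLH and Su(H) itself had 1 each. E(spl)m7-HLH, E(spl)m3-HLH, neur, fng, N and H had none there. Over all 13945 protein-coding genes on the arms, 6.61% had such a word. Counted by gene, and not by place, word and peak did not exclude each other across the E(spl) Complex. E(spl)malpha-BFM had 2 Su(H) words in the window and a peak in all 3 replicates. Those words lay 1352 and 1497 bp from the nearest conservative summit, so they were not beside it. E(spl)mdelta-HLH, E(spl)m1 and E(spl)m6-BFM had neither a word nor a peak.

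At E(spl)m8-HLH, E(spl)mgamma-HLH and E(spl)m4-BFM the words stood as an inverted pair with 17 bases between them. These 53-base stretches, read on the gene's strand of dm6 with the Su(H) words in capitals, are shown because they are the clearest Su(H) pairs of the complex and had no croc-eGFP peak beside them.
E(spl)m8-HLH, chr3R:26040006-26040058, + strand: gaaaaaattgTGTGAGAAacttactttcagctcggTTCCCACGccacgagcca
E(spl)mgamma-HLH, chr3R:25999547-25999599, + strand: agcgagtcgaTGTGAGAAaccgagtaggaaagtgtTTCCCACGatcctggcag
E(spl)m4-BFM, chr3R:26024848-26024900, - strand: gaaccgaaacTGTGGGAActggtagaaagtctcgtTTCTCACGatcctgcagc
The first word began 224, 294 and 311 bp before the TSS. The nearest conservative summit was 1597 bp away at E(spl)m8-HLH, 2316 bp at E(spl)mgamma-HLH and 3463 bp at E(spl)m4-BFM.

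The gene neur encodes an E3 ubiquitin ligase that sends the ligand Delta into endocytosis in the signalling cell. On chr3R:9020348-9039471 (FBgn0002932, - strand) it has 2 annotated TSSs, and all 3 of its conservative peaks lay in introns. The strongest, at chr3R:9031826-9032209, had its summit 1713 bp inside the gene from the TSS at 9033731, with a signal of 326 and rank 816. Its replicate signals were 120, 123 and 74.1, at ranks 921, 804 and 932, and its −log10 IDR was 4.74, 4.24 and 3.50. The replicate summits fell at 1682 ± 24.5 bp (SD, n = 3).

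A second neur peak, at chr3R:9033730-9034113, lay 191 bp before the TSS at 9033731, in an intron of the longer transcript that starts at 9039471. It had a signal of 176 (rank 1907) and was in replicates 1 and 2, with signals of 72.2 and 66.9. Replicate 3 had a ranked summit 15 bp away with a signal of 39.5 and a −log10 IDR of 1.47, under the threshold. The third, at chr3R:9033939-9034322, overlapped the second and had a signal of 32.8 (rank 3321). Its summit, 400 bp before the TSS, matched the same replicate summits as the second, so neur had 2 rather than 3 sites in the replicate lists.

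The gene fng encodes a glycosyltransferase that modifies the Notch receptor and changes which ligand it answers to. It lies at chr3L:20925891-20949512 (FBgn0011591, - strand), and both of its peaks were upstream and outside any protein-coding gene. The stronger had its summit 766 bp before the TSS, with a signal of 248 and rank 1246. The replicate signals were 96.5, 112 and 52.6, at ranks 1262, 936 and 1528. In replicate 3 this was 83.9% of the way down the list, and its −log10 IDR there was 2.41, beside 4.52 and 4.20 in replicates 1 and 2. The replicate summits fell at -772 ± 47.2 bp (SD, n = 3).

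The weaker fng peak, at chr3L:20950782-20951165 and 1462 bp before the TSS, had a signal of 87.8, a score of 859 and rank 3198. It passed in replicate 1 alone, with a signal of 46.1 and a −log10 IDR of 2.08. Replicate 2 had a ranked summit 26 bp away at 1.01, and the nearest ranked summit of replicate 3 was 695 bp away. It was also the single member peak with a summit in 0 of the 3 other thresholded lists of the series. Each of those lists had a summit within 250 bp of the other 7 peaks, where 1 summit could match more than 1 peak. The lists themselves held 7, 7 and 6 member peaks. In each of the 3 replicate lists and in the conservative list, the neur intronic site ranked below both near E(spl) sites and above the stronger fng site.

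**Figure D3:**
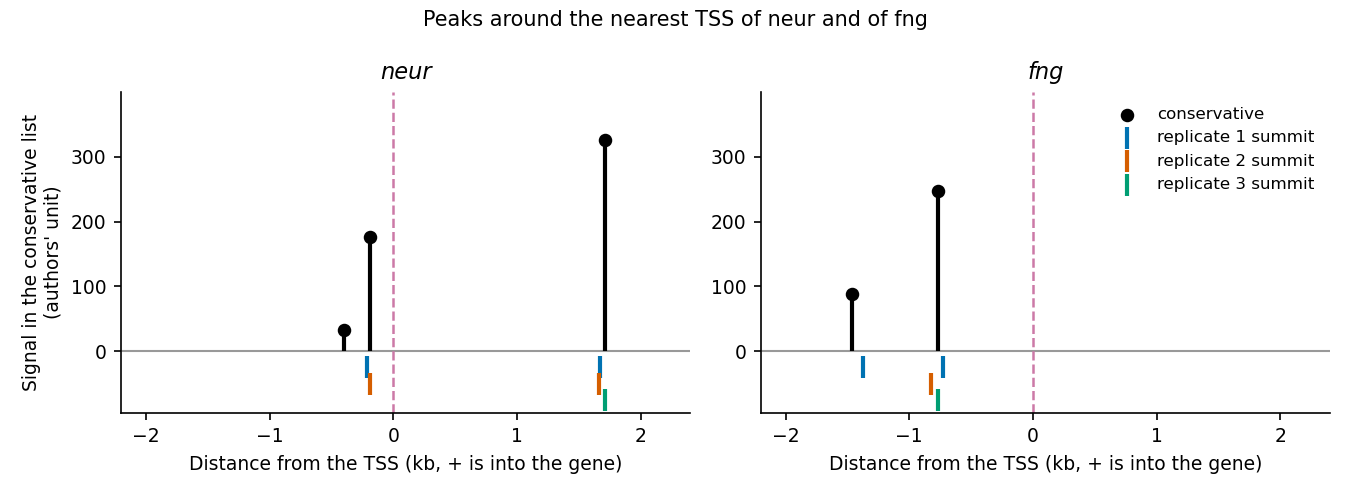
Conservative peaks around the TSS of neur at 9033731 (left) and of fng (right), with the deposited signal against the distance from the TSS in kb and the replicate summits as ticks under the axis. The neur intronic site and the stronger fng site have a tick of all 3 replicates, and the 2 neur peaks upstream share the same ticks.

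N, Su(H) and H, the receptor, the DNA-binding protein and the adaptor that turns Su(H) into a repressor, had no peak by the nearest-TSS rule. Su(H) came closest to the threshold. A site at its TSS, between -5 and 14 bp, had a −log10 IDR of 1.85 in replicate 1, 0.088 in replicate 2 and 1.46 in replicate 3, with signals of 35.5, 22.6 and 36.3. Another site, 596 to 625 bp inside the gene, had 0.841, 0.567 and 0.540. Near the TSS of N the values were 0.883, 0.197 and 0.052, and H had no ranked peak in replicate 1 and values of 0.088 and 0.132 in the others. Ranked peaks are common, so their presence says little: 60.8%, 51.7% and 59.0% of all genes had one in replicates 1, 2 and 3, beside 8, 10 and 9 of the 10 members.

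**Figure D4:**
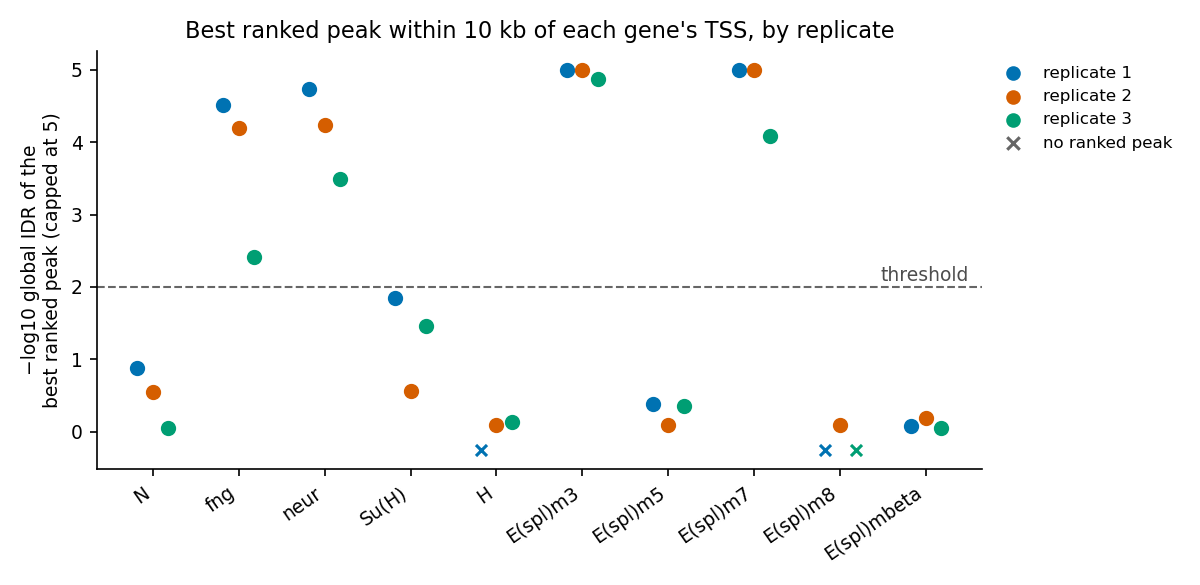
Highest −log10 global IDR among ranked peaks assigned to each of the 10 genes, by replicate, with the threshold at 2.0 as a dashed line and crosses where no ranked peak was assigned. fng, neur, E(spl)m3-HLH and E(spl)m7-HLH are above the line in all 3 replicates, and the other 6 genes are below it in all 3.

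The receptor gene itself did hold a strong site, far from any protein-coding TSS. It was found when peaks were assigned to gene bodies, and is described here as a site chosen after its values were seen. At chrX:3162425-3162654, in an intron of N (FBgn0004647, chrX:3134870-3172221, + strand), the summit lay 27673 bp from the start of the gene and 9678 bp from its end. The nearest protein-coding TSS was that of CG18508, 10597 bp away and beyond the 10 kb limit. Its signal of 605 ranked 262 of 3650, above all 8 member peaks. The replicate signals were 228, 235 and 131, at ranks 308, 241 and 305, and the summits lay 29, 19 and 27 bp from the conservative summit. None of the words searched was within 150 bp of it. A second such site, 2458 bp beyond the end of fng at chr3L:20923241-20923624, was nearest to the TSS of CG10589, had a signal of 144 and was in replicate 1 alone.

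The near sites of E(spl)m3-HLH and E(spl)m7-HLH lay further upstream of their TSSs than most promoter peaks, while the other 6 member peaks were spread from 1462 bp upstream to 1713 bp downstream. Taking 500 bp on either side of a TSS as the promoter, 4 of the 8 member peaks were promoter peaks, beside 40.6% of all conservative peaks. Over the 1478 promoter peaks the summit had a median position of -125 bp (quartiles -220 and -56 bp), and 83.5% lay upstream of the TSS. These E(spl) sites, at -424 and -391 bp, stood among the 90 promoter peaks (6.09%) that were 391 bp or more upstream. That cut was the distance of the E(spl)m7-HLH site itself, and promoter peaks end at 500 bp by definition. The weak neur site at -400 bp was among the 90 too, and the neur peak at -191 bp was within the quartiles. Over all 8 the median distance to the TSS was 595 bp, beside 1000 bp over all peaks on the arms. The near E(spl) peaks lay upstream of the gene they were assigned to, with the second nearest TSS 3180 bp away at E(spl)m3-HLH (that of E(spl)m4-BFM) and 3593 bp away at E(spl)m7-HLH (that of E(spl)m8-HLH). For neur the second nearest gene was hyx, 4629 to 6742 bp away, and for fng it was Sems, 5776 to 6472 bp away. When the TSSs of non-coding genes were counted too, the peaks of E(spl)m3-HLH went to lncRNA:CR43644 (323 and 564 bp) and those of fng to lncRNA:CR45243 (505 and 191 bp).

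**Figure D5:**
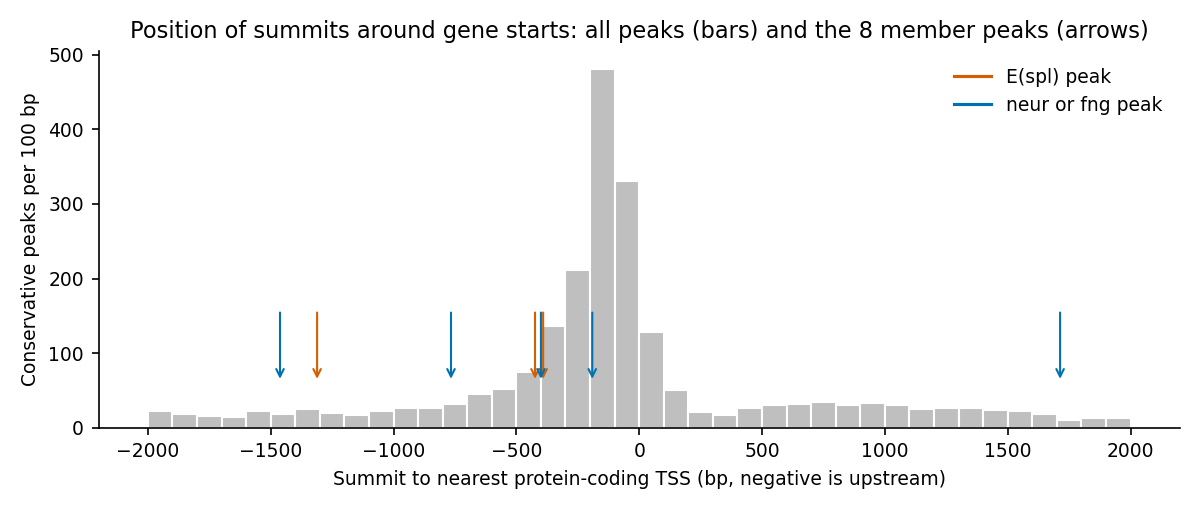
Number of conservative peaks per 100 bp of distance from the summit to the nearest protein-coding TSS (bars), with the 8 member peaks as arrows, E(spl) in orange and neur or fng in blue. The bars are highest between -200 and -100 bp, and the arrows of E(spl)m3-HLH and E(spl)m7-HLH lie to the left of that maximum, at -424 and -391 bp.

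Forkhead words were about as frequent at the member peaks as elsewhere. Within 150 bp of the summit, 4 of the 8 member peaks had at least 1 forkhead word, beside 48.0% of all conservative peaks. They were the E(spl)m7-HLH site, where TGTTTAT began 82 bp from the summit, the stronger fng site, the far E(spl)m3-HLH site with TATTTAT and the weak neur site with TATTTAC. The stronger fng site held both TATTTAC and TATTTAT, and the nearer of these began 26 bp from the summit. The sequences of the near E(spl)m3-HLH site and the neur intronic site, which had all 3 replicates, held none of the forkhead words searched. Other forms of the forkhead core were not searched. TGTTTAC itself was at 0 of 8, beside 8.32%. The 101 bases at the summit were a median of 73.8% A and T at the members and 69.3% over all peaks, beside 51.5% and 55.4% in the 101 bases centred 500 bp to the left.

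The proneural E-box was searched in the loose form GCAGNTG, which takes any base at N. This form was within 150 bp of 3 of the 8 summits, beside 15.4%. Whether proneural activators bind these matches was not tested. It read GCAGATG at the neur intronic site, GCAGTTG at the far E(spl)m3-HLH site and GCAGCTG at the weak neur site. The words searched for the E(spl) and hairy families were CACNAG, the N-box, at 3 of 8 (beside 28.6%), and CACGTG at 1 of 8 (beside 2.96%). That 1 was the far E(spl)m3-HLH site, where CACGTG overlapped the proneural E-box in CACGTGCAGTTG. Other words of these families were not searched. GAGAG, the word of GAGA factor, was at 4 of 8, beside 35.9%, with 5 copies at the weak neur site, of which 2 overlap. The weak neur summit also counts among the E-box and forkhead peaks. Its matching summits of replicates 1 and 2 lay 186 and 214 bp away, beyond the 150 bp window. TATCGATA, the DNA replication-related element, was at 0 of 8, beside 3.57%. A match is only a match of letters, and a word that is missing is missing from this window alone.

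Of 41 other genes of the pathway, 11 had a conservative peak, and 7 had a peak in all 3 replicate lists, beside the 15.8% and 8.17% of all genes. By role, peaks were at 0 of 2 ligand genes, 0 of 2 ligand endocytosis genes, 1 of 6 receptor cleavage genes, 1 of 2 receptor glycosylation genes and 2 of 5 trafficking genes. They were at 3 of 4 nuclear cofactor genes, 2 of 7 other genes of the E(spl) Complex, 0 of 4 Bearded Complex genes, 1 of 3 other Hes and Hey genes and 1 of 6 proneural genes. The strongest of these 16 peaks was in numb, which encodes an inhibitor of Notch passed to a single daughter cell at asymmetric division. Its summit lay 247 bp before an alternative TSS in an intron, with a signal of 1098 (rank 64) and signals of 466, 420 and 242 in the 3 replicates. The γ-secretase subunit gene aph-1 had a peak 236 bp before its TSS (signal 389), but Snx21 has a TSS 332 bp from the same summit. The replicates differed there, with ranks of 796, 1994 and 352.

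The channel-like protein gene bib had 2 sites in all 3 lists, at 1951 bp inside the gene (signal 258) and 289 bp upstream (signal 247). The O-glucosyltransferase gene rumi had a peak 99 bp before its TSS (signal 224), with Usp12-46 at 205 bp. The coactivator gene mam had 3 conservative peaks, of which the strongest (signal 151) was in replicates 1 and 3 and the others in none. The corepressor gene CtBP had an intronic peak in replicates 1 and 2 (signal 128). For the proneural gene ase the peak lay 2701 bp before the TSS, in an intron of CG32816, and was in replicate 1 alone (signal 130). That of the pair-rule repressor gene h was intergenic, 7453 bp before the TSS, and in no replicate list (signal 139). The ligand genes had no peak by the rule. The nearest to Ser was 10990 bp away (signal 114) and in no replicate list.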

How the data were processed

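The labels describe 3 replicates of 1 group, and the deposited files are peak lists on dm6. Per the labels' protocols chromatin was sonicated and immunoprecipitated; no aligner, peak caller or version is named in the sources used here. Per the layout of the deposited files, the authors ran IDR on pairs of lists. The deposited signal is the peak caller's value per peak, on a scale that is not stated, and served only to order peaks of the same list. Scores in the deposited lists are scaled IDR values, and the ranked lists also give the −log10 of the global IDR. No read counts were used, so sequencing depth is unknown and no interval can be given.

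Scripts (Python 3.11.15, pandas 2.3.3, numpy 2.4.6, matplotlib 3.10.9) took the summit of each peak as its start plus its summit offset. Each summit was assigned to the nearest TSS of a protein-coding gene (BDGP6.54 annotation) within 10 kb, on 6 arms. Summits within 250 bp were counted as shared, and words were searched within 150 bp. Each deposited list had its chromosome ends checked against the reference, and the steps were tested on simulated data. The design has 1 group, so no test was run, and shares over all genes or peaks stand beside the members' counts. The genes named are the 10 members, genes of the pathway list with a peak, and genes with the nearest or second nearest TSS; others were named after their values were seen. Of the 41 other pathway symbols, 5 were matched by synonym. Sequences are printed for 5 of the 8 member summits, and those of the other 3 are not reported here. The members and lists were chosen with earlier results of these data known.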

Additional observations from a re-analysis of the deposited data

How the results depend on the processing

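Of 51 recomputed counts, 38 stayed within 1.5 times their first value and 13 did not. The count of member genes with a conservative peak was 4 again under distance limits of 5 and 20 kb and with each replicate left out; assigning peaks to gene bodies gave 5 genes and 10 peaks, through the site inside N and the site beyond the end of fng. With the TSSs of all annotated genes, 2 member genes and 4 member peaks were left. In the strongest 50% of the list, and in the list of replicate 3 alone, there were 4 member peaks in place of 8, and 7 other pathway genes in the strongest 50% in place of 11. When each replicate was left out in turn and a summit was required in both of the others, member peaks ranged from 4 to 7, other pathway genes from 7 to 8 and member peaks in all the lists from 4 to 7. These counts still start from the conservative list, whose member calls pair replicates 1 and 2. Leaving out replicate 1 or 2 therefore did not remake the calls, and leaving out replicate 3 was bound to keep those genes. Taking ranked in place of thresholded lists gave 7 peaks in all 3. A promoter within 250 bp left 1 peak in place of 4. Forkhead words within 50 bp left 1 peak, the stronger fng site, and TGTTTAC alone left 0. The count of peaks with a Su(H) word was 0 under every window and word set tried. Without a peak beside a stronger summit there were 7 member peaks. No paired analysis was possible because the series has 1 group. With 3 replicates, no counts and no control lists, neither the precision of a single signal nor sites under the threshold can be judged.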
